A study of Rattus norvegicus with 59 samples.

Results

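Aminoacyl-tRNA synthetases are the enzymes that join each amino acid to its transfer RNA. They were followed in rat liver after a single exposure to cadmium (Cd) or hexavalent chromium (Cr). Probe sets of the array were taken where the annotation gave exactly 1 gene symbol and that symbol named a synthetase. This gave 50 probe sets of 32 genes, out of 31042 probe sets and 14217 genes with a symbol of their own on the array. Of the 32 genes, 19 encode enzymes of the cytosol and 13 encode enzymes of the mitochondria only. All 32 gene identifiers were found in the RefSeq gene table. Some other synthetases were not analysed here.

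Livers came from male Sprague-Dawley rats that had received 1 intraperitoneal injection. Exposed rats received CdCl2 at 1.25 mg/kg, the medium dose, or Na2Cr2O7 at the high dose, which the labels give as 20 mg/kg. The methods of the study also name another Cr dose for the arrays, so the dose is called high here. Control rats received sterile saline, and each metal had its own controls on days 1, 3 and 7. For Cd there were 4 exposed livers on the first of these days and 5 on each of the others, and 5 control livers per day. For Cr there were 5 exposed and 5 control livers on each day. A further Cd liver of day 1 had been left out by the authors, so the exposed livers of that day are numbered 1, 2, 4 and 5. The expression profile of the liver left out had grouped with those of controls. The authors then found that this liver had not accumulated Cd. The age of the rats is not given in the sources used here. The labels call the livers of a group biological replicates, and each was measured on 1 Affymetrix rat genome expression array. How precise a value is depends here on the number of arrays. All levels are log2 signals from the robust multi-array averaging of the authors, so a difference of 1 is a doubling, and levels were compared between livers and not between genes.

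Each synthetase recognises 1 amino acid and the transfer RNAs that carry it, and the charged tRNA is what the ribosome reads. The enzymes fall into 2 structural classes that attach the amino acid in different ways. In mammals most amino acids have 1 gene for the cytosol, named with a final 1, and another for mitochondria, named with a final 2, while the Gars1 and Kars1 genes supply both compartments. Several cytosolic enzymes (here Eprs1, Iars1, Kars1, Lars1, Mars1, Qars1 and Rars1) sit together in the multisynthetase complex on the scaffold proteins Aimp1, Aimp2 and Eef1e1. Uncharged tRNA activates the kinase Gcn2, which raises translation of the transcription factor ATF4, and many cytosolic synthetase genes are known targets of ATF4. The promoter element of that pathway is the C/EBP-ATF response element, whose core is TGATGNAA.

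Promoters are shown first because the same short element recurred among the cytosolic genes. RefSeq windows of 300 bases (250 before and 50 after the start, build GRCr8) were found for 30 of the 32 genes and searched on both strands. The core TGATGNAA was present in 7 of 17 cytosolic windows and 0 of 13 mitochondrial windows, compared with 3.98% of all 33469 rat windows of the same length. The 7 were Aars1, Cars1, Iars1, Mars1, Nars1, Tars1 and Yars1. The E-box CACGTG, to which MYC and related factors bind, was present in 5 of 17 cytosolic windows (Aars1, Farsb, Iars1, Tars1 and Vars1) and in 1 of 13 mitochondrial windows (Ears2), compared with 6.42% of all windows. The interferon response core GAAANNGAA was in 0 of 30 member windows and in 9.71% of all windows. The 3 motifs did not overlap each other in these windows. A match is a description of the letters only. For the 5 genes whose C/EBP-ATF core lay before the start, the last 150 bases before the start are given 5′ to 3′ on the strand of the gene, with C/EBP-ATF cores and E-boxes in capitals. The windows lie at chr19:55908332-55908481 (plus strand) for Aars1, chr17:15193653-15193802 (minus strand) for Iars1, chr7:65023754-65023903 (minus strand) for Mars1, chr18:60275783-60275932 (minus strand) for Nars1 and chr2:62114803-62114952 (minus strand) for Tars1.
Aars1: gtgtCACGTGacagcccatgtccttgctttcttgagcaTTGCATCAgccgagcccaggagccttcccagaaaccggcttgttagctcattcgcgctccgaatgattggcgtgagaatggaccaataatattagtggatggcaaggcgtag
Iars1: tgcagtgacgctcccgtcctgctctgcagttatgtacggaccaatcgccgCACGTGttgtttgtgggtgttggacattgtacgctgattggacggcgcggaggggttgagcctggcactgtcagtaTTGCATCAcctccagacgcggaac
Mars1: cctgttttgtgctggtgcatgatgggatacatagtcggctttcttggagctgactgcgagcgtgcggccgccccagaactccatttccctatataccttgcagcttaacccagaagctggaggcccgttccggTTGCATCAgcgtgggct
Nars1: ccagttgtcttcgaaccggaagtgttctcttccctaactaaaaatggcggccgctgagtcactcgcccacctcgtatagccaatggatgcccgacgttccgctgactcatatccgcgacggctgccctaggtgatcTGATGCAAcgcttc
Tars1: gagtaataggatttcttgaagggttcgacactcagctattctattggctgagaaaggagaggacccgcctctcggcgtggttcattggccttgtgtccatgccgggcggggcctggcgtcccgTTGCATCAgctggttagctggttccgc
In Nars1 the core reads TGATGCAA on the strand of the gene. In Aars1, Iars1, Mars1 and Tars1 it lies on the opposite strand and reads TTGCATCA as printed. In Yars1 and Cars1 the core began 39 and 18 bases after the start.

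The livers carried the markers of their tissue. Of 6 hepatocyte markers 5 were measured, and the mean of their log2 signals lay between 14.19 and 14.25 in Cd livers and between 14.24 and 14.33 in Cd controls of day 1, and between 14.30 and 14.36 in Cr livers and between 14.27 and 14.33 in Cr controls. On day 1 after Cd 1 of the 5 was called lower at the threshold given below, and after Cr 0 were called. Of all probe sets 6.39% were called higher and 5.27% lower after Cd, and 14.8% and 11.2% after Cr. Markers of some other cell types differed from controls. All 7 measured Kupffer cell markers fell on day 1 after Cd (median log2 fold change -3.23), and the mean of the 7 signals was 4.83 to 7.40 in Cd livers and 8.41 to 8.85 in Cd controls. After Cr 1 of the 7 rose and the means were 8.49 to 8.996 in Cr livers and 8.32 to 8.71 in Cr controls. The mean of the 6 neutrophil markers was 5.51 to 6.22 in Cd livers and 4.14 to 4.66 in their controls, and 4.40 to 5.08 in Cr livers and 3.97 to 4.47 in their controls. Of the 6, 4 rose and 0 fell after Cd, while after Cr S100a8 (1.27) and S100a9 (1.34) rose and Ly6g6e fell (-0.30), with a list median of 0.09. After Cd 2 of 3 cholangiocyte markers fell, and 1 of 5 stellate cell and 1 of 5 endothelial cell markers rose. After Cr 1 of 3 cholangiocyte, 1 of 5 stellate cell and 1 of 5 endothelial cell markers rose. No T and B cell or red cell marker was called after either metal. Some livers stood apart for Lcn2, the injury marker lipocalin 2. Cd controls of day 1 read 7.73, 4.23, 9.94, 10.27 and 9.56 in livers 1 to 5, while the Cr controls of that day lay between 4.66 and 5.69. Among Cd livers, liver 5 of day 3 read 5.12 while the other livers of that day read 12.95 to 13.64, and liver 2 of day 7 read 12.53 while the others read 5.32 to 6.71. Counts without single livers, and with the controls of days 3 and 7 in place of those of day 1, are therefore given where they differ. In whole liver a smaller number of cells of a type and less RNA per cell cannot be told apart, and the part of these shifts in the synthetase results was not tested.

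On day 1 after Cd, 8 of the 19 cytosolic synthetase genes were called higher than in same-day controls and 11 were not called, and 11 of the 13 mitochondrial genes were not called. Eprs1 and Wars1 rose by about 2-fold. The question is how far the rat liver synthetases respond to each metal at each time. Calls required limma to give 0.05 or less after Benjamini-Hochberg adjustment over all 31042 probe sets. Of the 50 member probe sets, 11 were called higher and 1 lower, beside 6.39% of all probe sets called higher and 5.27% called lower. By gene, read on the brightest probe set of each, 9 of 32 rose and 1 fell. The shares are over probe sets of all signal levels, and shares among probe sets as bright as these were not counted. Of the 19 cytosolic genes 8 rose and 0 fell, and 18 had a positive difference, with a median log2 fold change of 0.21 beside -0.01 over all probe sets. The 8 were Eprs1, Wars1, Yars1, Hars1, Lars1, Aars1, Sars1 and Kars1. The number was 5 without exposed liver 4, without exposed liver 5 or without control liver 5. Of the 13 mitochondrial genes 1 rose (Nars2) and 1 fell (Cars2), and their median was -0.07. In 12 of the 50 probe sets every Cd liver was above every control liver, beside 5.74% of all probe sets. Eprs1 and Wars1 were the 2 genes that also passed a 1.8-fold threshold, which 1.23% of all probe sets passed upward.

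Among the rises after Cd, Eprs1 encodes the enzyme that charges both the glutamate and the proline tRNAs. Its log2 signal was 11.89, 11.99, 11.91 and 11.68 in Cd livers 1, 2, 4 and 5, and 10.85, 10.97, 10.95, 10.78 and 10.53 in control livers 1 to 5. All Cd livers were above all controls, by 1.05 on average (95% confidence interval 0.84 to 1.26, adjusted p = 4.8e-08 in limma), a 2.07-fold change. A second bright probe set of the gene gave 1.13, and 2 dimmer ones were not called (1.08, adjusted p = 0.071, and 0.17). The probe set with 1.08 read 8.885, 9.59, 8.43 and 7.65 in Cd livers 1, 2, 4 and 5. In control livers 1 to 5 it read 8.13, 8.58, 7.37, 7.07 and 6.63, so each Cd liver was above the control of equal number. Wars1, the tryptophan enzyme, is in human cells a well known interferon-induced gene. It read 8.61, 8.11, 8.46 and 8.39 in Cd livers and 7.33, 7.41, 7.40, 7.30 and 7.47 in controls, which did not overlap. The log2 fold change was 1.01 (0.81 to 1.21, adjusted p = 4.7e-08 in limma), or 2.01-fold.

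Yars1, the tyrosine enzyme of the cytosol, was the third largest rise. It read 9.42, 8.96, 9.42 and 9.37 in Cd livers and 8.68, 8.68, 8.87, 8.53 and 8.47 in controls. Cd liver 2 was the lowest exposed liver and lay just above the highest control. The log2 fold change was 0.65 (0.41 to 0.88, adjusted p = 0.00018 in limma). Hars1, the cytosolic histidine enzyme, read 7.98, 7.78, 8.38 and 8.24 in Cd livers and 7.42, 7.87, 7.66, 7.81 and 7.46 in controls. Here liver 2 fell within the control range. The fold change was 0.45 (adjusted p = 0.018 in limma), and the call was lost without exposed liver 4 (0.35, adjusted p = 0.11), exposed liver 5, control liver 1 or control liver 5, and as the mean of both probe sets (0.40, adjusted p = 0.057). Lars1, the leucine enzyme, read 9.63, 9.56, 9.77 and 9.81 in Cd livers and 9.26, 9.35, 9.44, 9.54 and 9.36 in controls, a change of 0.30 (adjusted p = 0.0097 in limma) with no overlap. Aars1 and Sars1, for alanine and serine, also changed by 0.30 each, and Kars1, for lysine, by 0.19 (adjusted p = 0.047 in limma). Nars2, the asparagine enzyme of mitochondria, read 6.14, 5.77, 5.61 and 5.64 in Cd livers and 5.47, 5.10, 5.56, 5.39 and 5.36 in controls, a dim signal. Its change of 0.41 had an adjusted p of 0.029 in limma and did not pass against pooled controls (0.22, adjusted p = 0.26) or against the controls of days 3 and 7 (0.12, adjusted p = 0.58). It also missed the threshold in the fit of all 59 livers (adjusted p = 0.075), without exposed liver 1 (adjusted p = 0.18), exposed liver 2 or control livers 2 or 5.

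**Figure D1:**
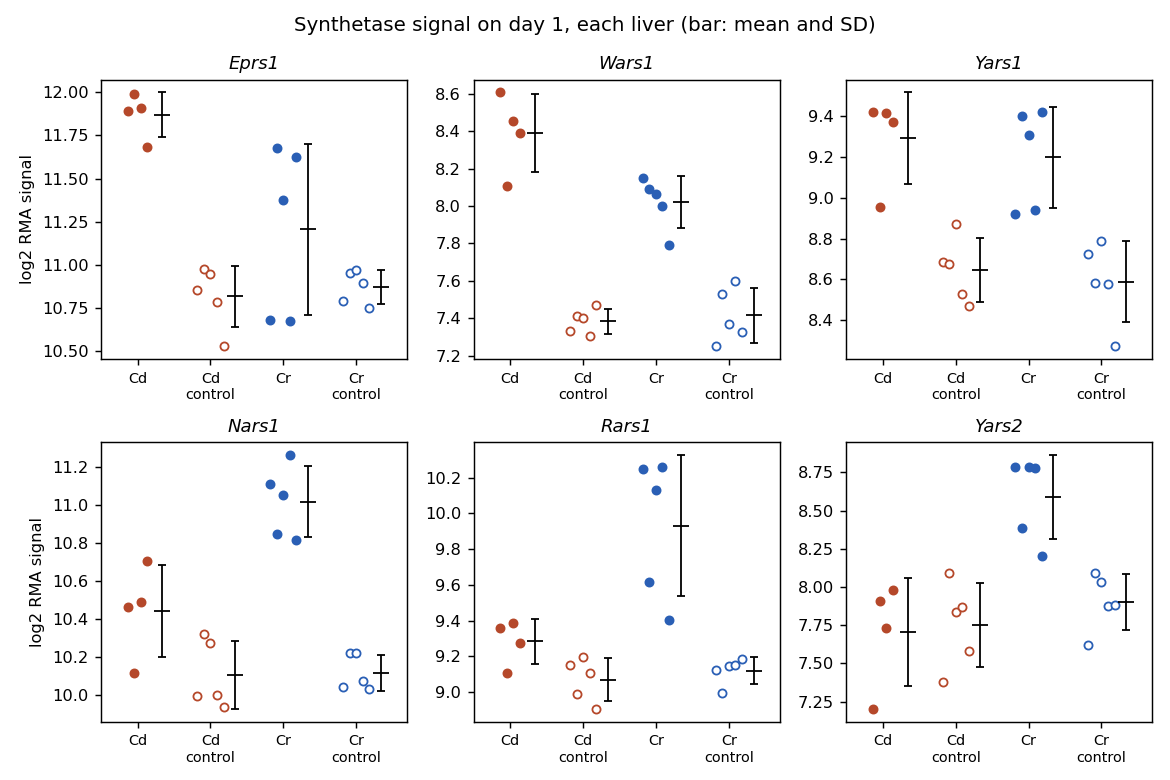
Log2 RMA signal (vertical axes, a separate range for each gene) of Eprs1, Wars1, Yars1, Nars1, Rars1 and Yars2 in each liver of day 1, with exposed livers as filled points, control livers as open points, and a bar for the mean and SD of the group. Eprs1 lay between 11.68 and 11.99 in Cd livers and spread from 10.67 to 11.68 in Cr livers, while Nars1 was at 10.82 or above in Cr livers and at 10.22 or below in their controls.

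On day 1 after Cr more of the cytosolic genes rose, and no synthetase gene rose as far as Eprs1 and Wars1 had after Cd. Of the 50 member probe sets 20 were called higher and 4 lower, beside 14.8% of all probe sets called higher and 11.2% called lower. By gene 17 of 32 rose and 3 fell. All 19 cytosolic genes had a positive difference, 14 rose and 0 fell, and the median log2 fold change was 0.46 beside -0.03 over all probe sets. Genes were classed by the amino acid in the symbol, and Farsa and Farsb are subunits of 1 enzyme. The 9 cytosolic class II genes (Aars1, Farsa, Farsb, Gars1, Hars1, Kars1, Nars1, Sars1 and Tars1) rose 9 of 9, with a median of 0.52. Of the 10 class I genes 5 rose (Iars1, Qars1, Rars1, Wars1 and Yars1), with a median of 0.34. Eprs1, not called, was counted as class I by its glutamate part, although its proline part is of class II. Whether the classes differ was not tested, and the 9 of 9 depends on where Eprs1 is placed. Of the 7 enzymes of the multisynthetase complex 4 rose, and of the 12 other cytosolic genes 10 rose. Of the 13 mitochondrial genes 3 rose (Yars2, Hars2 and Rars2) and 3 fell (Cars2, Fars2 and Iars2), with a median of -0.07. In 15 of the 50 probe sets every Cr liver was above every control, beside 7.04% of all probe sets. Nars1 was the only gene to pass the 1.8-fold threshold on its brightest probe set, which 1.57% of all probe sets passed upward.

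Nars1, the asparagine enzyme of the cytosol, carries the C/EBP-ATF core printed above. Among genes with the core, Aars1 and Yars1 were called higher after both metals, and Iars1, Nars1 and Tars1 after Cr only. Cars1 and Mars1 have the core and were called after neither metal on their brightest probe sets. Eprs1 and Wars1, the largest rises after Cd, have windows without it. Whether the core goes with the calls was not tested. The signal of Nars1 was 11.11, 10.85, 11.05, 11.26 and 10.82 in Cr livers 1 to 5, and 10.04, 10.22, 10.22, 10.08 and 10.03 in control livers 1 to 5. The groups were well apart, and the log2 fold change was 0.90 (0.65 to 1.14, adjusted p = 2.1e-06 in limma), or 1.86-fold. Rars1, the arginine enzyme, read 10.25, 9.61, 10.13, 10.26 and 9.40 in Cr livers and 9.12, 8.99, 9.14, 9.15 and 9.19 in controls. Cr livers 2 and 5 were the lowest of the exposed livers and still above every control. The change was 0.81 (0.56 to 1.06, adjusted p = 1e-05 in limma).

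Yars2, which charges tyrosine tRNA in mitochondria, was the largest mitochondrial rise. It read 8.79, 8.38, 8.78, 8.78 and 8.20 in Cr livers and 7.62, 8.09, 8.03, 7.88 and 7.88 in controls, a change of 0.69 (0.46 to 0.91, adjusted p = 2e-05 in limma). Iars1, the isoleucine enzyme, has both an E-box and the C/EBP-ATF core in its promoter window. It read 9.25, 9.36, 9.32, 9.30 and 9.59 in Cr livers and 8.73, 8.99, 8.87, 8.52 and 8.42 in controls, a change of 0.66 (0.39 to 0.93, adjusted p = 0.00034 in limma), again without overlap. Wars1 read 8.15, 8.09, 8.06, 8.001 and 7.79 in Cr livers and 7.25, 7.53, 7.37, 7.60 and 7.33 in controls, a change of 0.61 (adjusted p = 3.6e-06 in limma). Yars1 read 8.92, 9.40, 9.31, 8.94 and 9.42 in Cr livers and 8.72, 8.58, 8.79, 8.58 and 8.27 in controls, a change of 0.61 (adjusted p = 0.00098 in limma). The other cytosolic genes called higher changed by 0.24 (Aars1) to 0.60 (Hars1), and both subunits of the phenylalanine enzyme were among them, Farsb with 0.56 and Farsa with 0.40. Hars1 and Hars2 are neighbours with starts 144 bases apart on opposite strands, and their promoter windows share 243 bases. Both rose after Cr, by 0.60 and 0.43.

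The 5 cytosolic genes not called after Cr were Cars1, Eprs1, Lars1, Mars1 and Vars1. Eprs1, the largest response to Cd, read 10.68, 11.68, 11.38, 10.67 and 11.62 in Cr livers and 10.79, 10.95, 10.97, 10.89 and 10.75 in controls. Cr livers 2, 3 and 5 were above every control and Cr livers 1 and 4 below every control, so that the difference of 0.33 (0.03 to 0.64) had an adjusted p of 0.10 in limma. The call was made without exposed liver 1 (0.47, adjusted p = 0.019) or exposed liver 4 (0.47, adjusted p = 0.018). Pooling the controls also gave a call (0.33, adjusted p = 0.030), as did fitting all 59 livers together (adjusted p = 0.048). The cysteine enzyme Cars1 was split alike, at 8.21, 9.22, 8.60, 8.14 and 9.42 in Cr livers and 8.51, 8.32, 8.40, 8.26 and 8.33 in controls (0.35, adjusted p = 0.18 in limma). Cr livers 2, 3 and 5 were again above every control, and livers 1 and 4 below. Asns, the ATF4 target that encodes asparagine synthetase, read 5.56, 7.13, 6.83, 6.75 and 8.64 in Cr livers, and 6.27, 5.72, 6.13, 5.72 and 5.43 in controls. Livers 1 and 4 were the lowest of the Cr livers there too, although liver 4 was above every control. Other ATF4 genes are not given by liver here, and whether these splits are related was not tested.

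**Figure D2:**
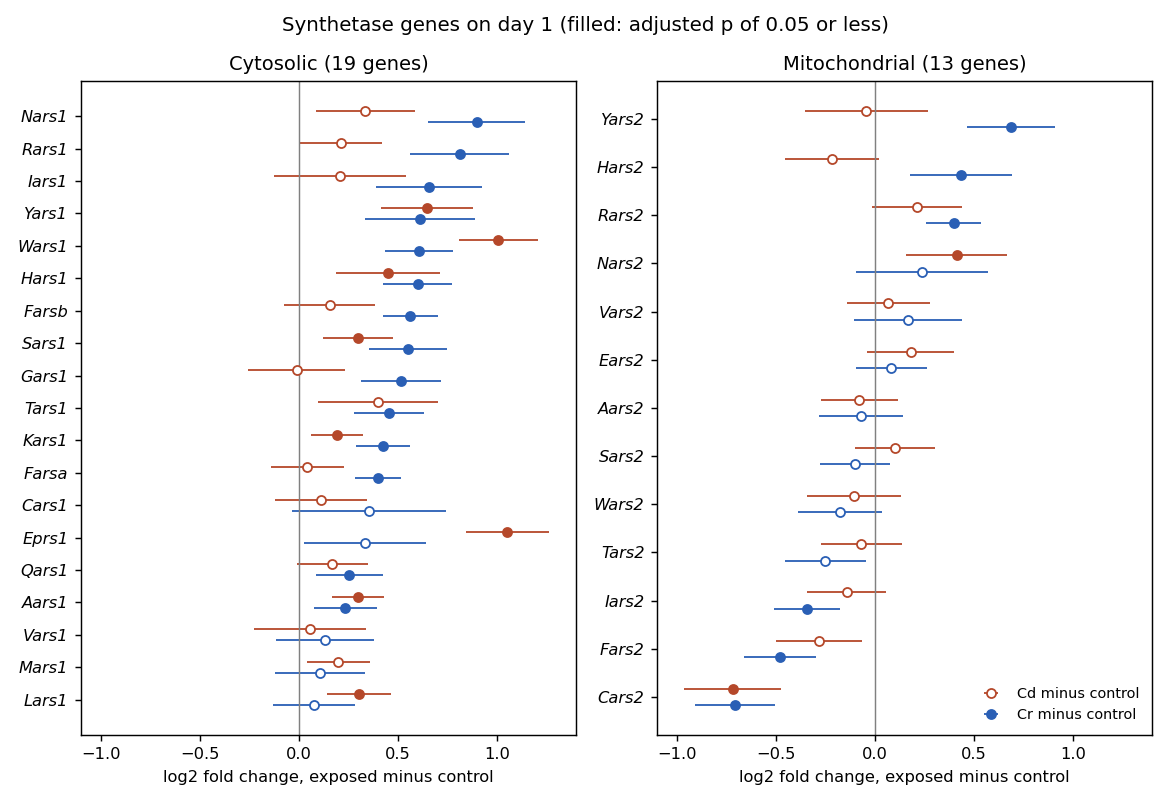
Log2 fold change on day 1 (horizontal axes, exposed minus same-day control, with the 95% confidence interval) of the 19 cytosolic genes and the 13 mitochondrial genes, each on its brightest probe set and ordered by the value after Cr, with Cd above Cr in each pair and filled points for an adjusted p of 0.05 or less. All 19 cytosolic Cr points and 18 of the 19 cytosolic Cd points lie right of 0, while 7 of the 13 mitochondrial Cr points and 8 of the 13 mitochondrial Cd points lie left of 0.

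All members called lower on day 1 were mitochondrial genes. They were 1 of 50 probe sets after Cd and 4 of 50 after Cr. Of all probe sets 5.27% and 11.2% were called lower, so the falls were not above these shares. By gene 1 of 13 mitochondrial genes rose and 1 fell after Cd, and 3 rose and 3 fell after Cr. Cars2, the cysteine enzyme of mitochondria, fell after both metals. It read 7.14, 7.33, 7.18 and 7.66 in Cd livers and 8.34, 7.82, 8.10, 7.91 and 8.06 in their controls. After Cr it read 7.30, 7.61, 7.42, 7.22 and 7.66, and 8.25, 8.19, 8.12, 8.12 and 8.07 in controls. Every exposed liver lay below every control for both metals. The log2 fold change was -0.72 after Cd (-0.96 to -0.47, adjusted p = 9e-05 in limma) and -0.71 after Cr (-0.91 to -0.50, adjusted p = 4e-06 in limma). Fars2, the phenylalanine enzyme of mitochondria, read 7.24, 7.48, 7.42, 7.22 and 7.65 in Cr livers and 7.81, 7.88, 8.01, 7.88 and 7.83 in controls, a change of -0.48 (adjusted p = 0.00013 in limma) with no overlap. Iars2, the mitochondrial isoleucine enzyme, read 7.57, 7.36, 7.53, 7.48 and 7.54 in Cr livers and 7.84, 7.74, 7.99, 7.85 and 7.78 in controls, a change of -0.35 (adjusted p = 0.0018 in limma). After Cd the differences of Fars2 and Iars2 were -0.28 and -0.14 and neither passed. The remaining mitochondrial genes, Aars2, Ears2, Sars2, Tars2, Vars2 and Wars2, were called after neither metal on their brightest probe sets, and their differences lay between -0.25 (Tars2 after Cr) and 0.18 (Ears2 after Cd).

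Of the 32 genes 14 had several probe sets. Probe sets of a gene did not always give the same change. For Wars1 the second probe set gave 0.60 after Cd (adjusted p = 0.00012 in limma) and 0.06 after Cr (adjusted p = 0.71). Hars1 and Gars1 gave larger changes after Cr on their second probe sets, 0.96 and 0.85, and both were called. Calls on a dimmer probe set alone were made for Mars1 after Cr (0.44, adjusted p = 0.049 in limma) and for Wars2 after Cr (-0.26, adjusted p = 0.043). Probe sets with a mean signal under 6 made up 14 of the 50, of which 2 were called after Cd and 2 after Cr.

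The metals differed for some members and not for others. The difference between the effects (Cd minus Cr, each against its own day 1 controls) was tested in 1 fit of all 59 livers. Cd was given at its medium dose and Cr at its high dose. Metal and dose level therefore cannot be told apart in these differences. Of the 50 probe sets 4 were called higher after Cd and 7 higher after Cr, beside 4.63% and 7.17% of all probe sets. By gene Eprs1 (0.72, 95% confidence interval 0.34 to 1.10, adjusted p = 0.0070 in limma) and Wars1 (0.40, 0.14 to 0.66, adjusted p = 0.030) had the larger effect after Cd. Those with the larger effect after Cr were Yars2 (-0.73), Hars2 (-0.65), Rars1 (-0.60), Nars1 (-0.56), Gars1 (-0.53), Farsb (-0.41) and Farsa (-0.36). With only the 4 groups of day 1 in the fit, 4 probe sets were called in place of 11. How many of all probe sets were called in that fit was not counted. In that fit Eprs1 had an adjusted p of 0.088, Yars2 0.071, Gars1 0.077 and Rars1 0.080. The count of 11 became 7 without Cd liver 1 or without Cr liver 4. The Nars1 difference lost its call without Cd liver 2 (-0.45, adjusted p = 0.10), Cd control 2 or 3, or Cr liver 1 or 4. The Gars1 difference lost it without Cd liver 1 or 2 or Cr liver 4.

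Gars1, the glycine enzyme, shows the contrast. It read 9.39, 9.31, 9.47 and 10.06 in Cd livers and 9.49, 9.54, 9.66, 9.57 and 9.58 in Cd controls, so that 3 Cd livers lay below every control and liver 5 above every control (difference -0.01, -0.25 to 0.23). In Cr livers it read 10.26, 10.12, 10.33, 10.51 and 10.07, and 9.71, 9.97, 9.72, 9.62 and 9.68 in Cr controls, a rise of 0.52 (adjusted p = 0.00019 in limma). Hars2 read 7.32, 7.51, 7.09 and 7.20 in Cd livers and 7.88, 7.55, 7.52, 7.28 and 7.26 in their controls, with a change of -0.22 that did not pass. After Cr it read 8.39, 8.08, 8.16, 8.004 and 7.71, and 7.66, 7.71, 7.84, 7.50 and 7.46 in controls, a rise of 0.43 (adjusted p = 0.010 in limma). Yars1 and Cars2 changed alike in size after both metals, and the differences between the metals were 0.04 (-0.33 to 0.40) and -0.01 (-0.33 to 0.30). The intervals bound how far the metals could differ there at the doses used.

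On days 3 and 7 no member was called after either metal. The counts of 0 of 50 stand beside 0.541% of all probe sets called higher and 0.0709% called lower on day 3 after Cd, and 0.00644% in each direction on day 7. For Cr they stand beside 0% higher and 0.00322% lower on day 3, and 0.0354% higher and 0.0902% lower on day 7. At an unadjusted p of 0.05, limma gave 2 member probe sets on day 3 and 1 on day 7 after Cd, and 0 and 5 after Cr. The 5 were those of Gars1 (its second probe set), Lars1, Qars1, Sars1 and Wars2, and all were higher. The largest of them by gene, Sars1, differed by 0.30 on day 7 (adjusted p = 0.28 in limma). The difference between the metals was called for 0 member probe sets on day 3 and 0 on day 7, where 0.0129% and 0% (day 3) and 0.161% and 0.122% (day 7) of all probe sets were called higher after Cd and higher after Cr. At an unadjusted p of 0.05 those contrasts gave 2 and 6 member probe sets. Fits against pooled controls, the methods' ANOVA without variance moderation and the other alternatives also called 0 members on these days.

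On day 3 the exposed and control levels of Eprs1 and Wars1 after Cd and of Nars1 after Cr overlapped. Eprs1 ranged from 10.68 to 11.19 in Cd livers of day 3 (median 10.87) and from 10.70 to 11.07 in their controls (median 10.89). Wars1 ranged from 7.36 to 7.88 in Cd livers of day 3 (median 7.52) and from 7.21 to 7.59 in controls (median 7.36). Nars1 ranged from 10.08 to 10.60 in Cr livers of day 3 (median 10.22) and from 10.04 to 10.53 in controls (median 10.24). None of these 3 genes was called on day 3 or day 7. In 1 of 50 probe sets on day 3 after Cd, and 1 on day 7 after Cr, the groups did not overlap. The second Farsb probe set read 3.65 to 4.30 in Cd livers of day 3 and 4.32 to 4.61 in controls. The second Gars1 probe set read 6.56 to 6.86 in Cr livers of day 7 and 5.87 to 6.52 in controls. The share of all probe sets without overlap on these days was not counted. The change between the days was itself tested as the effect on day 1 minus that on day 3. After Cd 7 of 50 probe sets were called with a more positive change on day 1 and 1 with a more negative one. These stand beside 2.35% and 2.81% of all probe sets. The genes were Eprs1 (1.04), Wars1 (0.87), Yars1 (0.80) and Aars1 (0.32), with Cars2 (-0.67) in the other direction. After Cr 13 were called with a more positive change on day 1 and 2 with a more negative one, beside 7.01% and 4.53% of all probe sets. These were 11 genes led by Nars1 (0.85), Rars1 (0.69), Farsb (0.64) and Yars2 (0.64), with Cars2 (-0.72) and Fars2 (-0.47) in the other direction. The 2 effects compared have no livers in common.

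**Figure D3:**
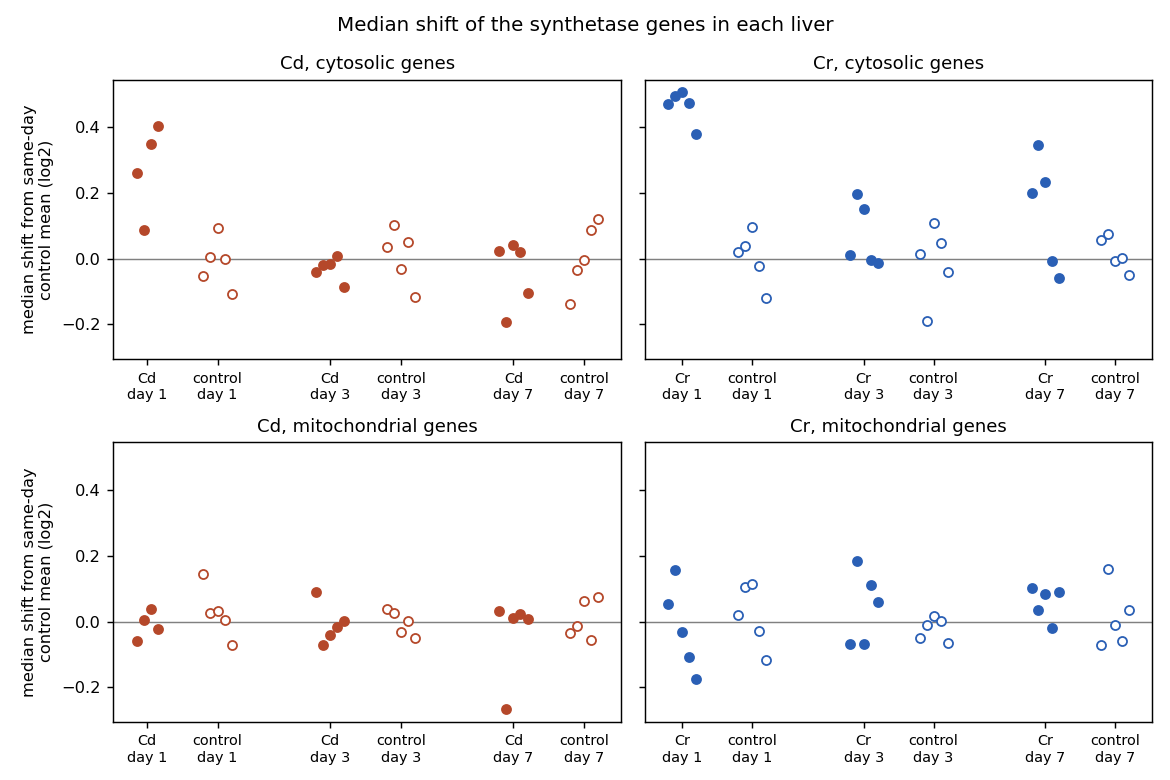
Median over the 19 cytosolic genes (upper row) or the 13 mitochondrial genes (lower row) of the difference from the mean of the same-day controls, in log2 units (vertical axes), for each exposed liver (filled) and control liver (open) on days 1, 3 and 7 after Cd (left) and Cr (right). The cytosolic median was 0.38 to 0.51 in the 5 Cr livers of day 1 and 0.09 to 0.40 in the 4 Cd livers, and -0.06 to 0.35 in the Cr livers of day 7.

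The median shift over the genes of a compartment was also taken in each liver, as a description. Over the 19 cytosolic genes it was 0.26, 0.09, 0.35 and 0.40 in Cd livers 1, 2, 4 and 5 of day 1, and -0.11 to 0.10 in their controls. Cd liver 2 thus lay within the control range. In Cr livers 1 to 5 of day 1 it was 0.47, 0.49, 0.51, 0.48 and 0.38, and -0.12 to 0.10 in controls, without overlap. The livers were less alike by class. The class I median was 0.20, 0.57, 0.41, 0.23 and 0.48 in Cr livers 1 to 5, and the class II median 0.55, 0.47, 0.59, 0.58 and 0.34. Over the 13 mitochondrial genes the median shift was -0.06 to 0.04 in Cd livers and -0.07 to 0.14 in controls, and -0.18 to 0.16 in Cr livers and -0.12 to 0.11 in controls. On day 7 after Cr the cytosolic shift was 0.20, 0.35, 0.23, -0.01 and -0.06 in Cr livers 1 to 5. It was -0.05 to 0.08 in their controls.

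Genes that work with the synthetases were read from lists, each on its brightest probe set. On day 1, 14.8% of all probe sets were called higher and 11.2% lower after Cr, and 6.39% and 5.27% after Cd. The 3 scaffold proteins of the multisynthetase complex all rose after Cr. Aimp1 read 9.51, 9.005, 9.53, 9.61 and 8.44 in Cr livers and 8.02, 8.56, 8.60, 8.12 and 8.17 in controls, a change of 0.93 (adjusted p = 0.00013 in limma), with only liver 5 in the control range. Aimp2 changed by 0.88 and Eef1e1 by 0.75. After Cd Aimp2 rose by 0.30 (adjusted p = 0.031 in limma), a call lost in the fit of both metals (adjusted p = 0.12), against the controls of days 3 and 7 (adjusted p = 0.11) and without exposed liver 1 or 4 or control liver 1, 4 or 5. Aimp1 (-0.04) and Eef1e1 (0.20) were not called after Cd. All 3 had a larger effect after Cr in the test of the difference, Aimp1 by -0.97 (adjusted p = 0.0023). Of 5 synthetase-related proteins 3 rose after Cr (Aarsd1 by 0.51, Tars3 by 0.44 and the editing enzyme Dtd1 by 0.35) and 0 after Cd, where Prorsd1 (0.19) and Dtd2 (-0.15) had the largest differences.

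The enzymes that process and modify tRNA were higher mainly after Cr. The shares of all probe sets were 14.8% higher and 11.2% lower after Cr, and 6.39% and 5.27% after Cd. After Cr 23 of 30 rose and 0 fell, with a median of 0.52. The largest were Trmt61a (1.63), which methylates adenine in tRNA with its partner Trmt6 (0.92), the RNase P subunit Rpp38 (1.38) and the pseudouridine synthase Pus3 (1.09). After Cd 6 rose and 1 fell, with a median of 0.11, and Trmt61a was again the largest (0.80, adjusted p = 0.0016 in limma), followed by Trmt10a (0.36), Trit1 (0.32) and Trmu (0.32). The call of Trmt10a was lost without exposed liver 1 or 4 (0.28 without liver 4, adjusted p = 0.17) or control liver 1, 2, 3 or 5. Trmu was not called against pooled controls (0.17), and neither Trmu (0.09) nor Trit1 (0.21) was called against the controls of days 3 and 7. In the test of the difference between metals 11 of 30 had a larger effect after Cr and 0 after Cd. Of all probe sets 7.17% and 4.63% were called in these directions. RNA polymerase III transcribes tRNA genes, and 9 of 18 of its subunits and factors rose after Cr, led by Polr3g (0.88), Polr3d (0.83), Brf2 (0.59) and Polr3e (0.53). After Cd 1 of 18 rose, Polr3d (0.36), and that call was lost without exposed liver 1 or 4 or control liver 1 or 4. In the test of the difference 4 of 18 had a larger effect after Cr and 0 after Cd.

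In mitochondria glutamine tRNA is charged by an indirect route that needs the amidotransferase of Qrsl1, Gatb and Gatc. After Cr Qrsl1 (0.69) and Gatc (0.38) rose while Gatb fell (-0.57). Of 12 mitochondrial translation factors 4 rose and 3 fell after Cr. Of all probe sets 14.8% were called higher and 11.2% lower after Cr, and 6.39% and 5.27% after Cd. After Cd 0 rose and 2 fell, Gatb (-0.35) and Gfm1 (-0.35), and the call of Gfm1 was lost without exposed liver 1 (-0.26, adjusted p = 0.14) or control liver 3 or 4.

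**Figure D4:**
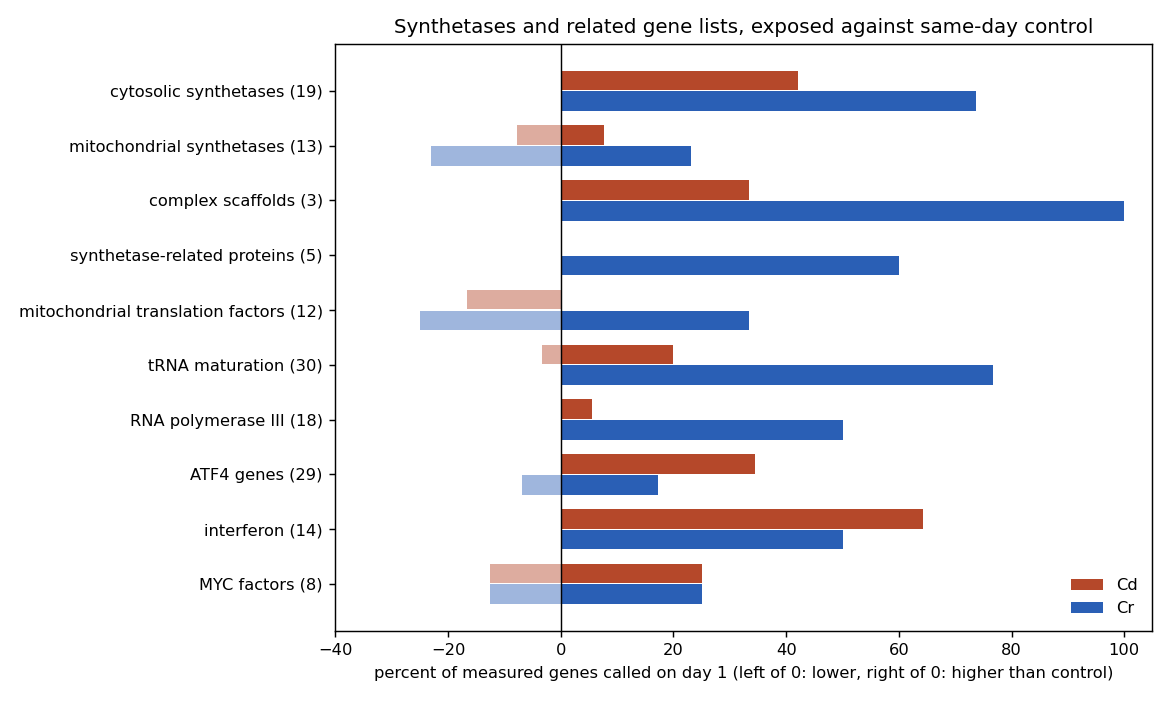
Percent of the measured genes of each list (the number in brackets) called higher (right of 0, full colour) or lower (left of 0, pale) than same-day controls on day 1, with Cd above Cr. After Cr 14 of 19 cytosolic synthetases, 3 of 3 scaffolds and 23 of 30 tRNA maturation genes were higher, and after Cd 8 of 19, 1 of 3 and 6 of 30. Of all probe sets 14.8% were called higher after Cr and 6.39% after Cd.

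Genes of 3 pathways that can act on synthetase genes were measured beside the synthetases, and their part in the synthetase results was not tested. Among 29 other ATF4 genes 10 rose and 0 fell after Cd (median 0.36), and 5 rose and 2 fell after Cr (median 0.04). The background was 6.39% higher and 5.27% lower after Cd, and 14.8% higher and 11.2% lower after Cr, over probe sets of all signal levels. The Cr counts were near it, but the list genes were read on their brightest probe sets. A background at like signal was not counted. Asns read 7.94, 7.33, 8.22 and 8.10 in Cd livers and 5.98, 5.78, 6.27, 6.31 and 5.20 in controls, a rise of 1.99 (adjusted p = 0.00063 in limma) with no overlap. After Cr the difference of Asns was 1.13 (adjusted p = 0.11). Nupr1 (1.73), Ddit3 (0.69) and Mthfd2 (0.66) followed after Cd, of which Nupr1 was not called against the controls of days 3 and 7 (0.95, adjusted p = 0.14) and Mthfd2 was lost in 7 of the 9 fits without a single liver, exposed liver 5 moving it most (0.40, adjusted p = 0.24). After Cr the largest were Atf3 (1.38), the amino acid transporters Slc3a2 (1.08) and Slc7a1 (0.96), and Gdf15 (-0.98). Slc3a2 and Slc7a1 also rose after Cd, by 0.58 and 0.47. The fall of Gdf15, a stress cytokine, was -0.30 and not called against pooled controls, and 0.03 against the controls of days 3 and 7. Trib3, an ATF4 target kinase-like protein, rose after both, by 0.62 after Cd and 0.80 after Cr, and the Cd call was lost without exposed liver 5 (0.48, adjusted p = 0.080) or control liver 1. The mRNA of Atf4 itself differed by 0.31 after Cd (adjusted p = 0.092 in limma) and 0.22 after Cr (adjusted p = 0.22), and was called after both metals against pooled controls (0.39 and 0.27) and against the controls of days 3 and 7 (0.43 and 0.30).

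Of 14 interferon genes 9 rose after Cd and 7 after Cr, beside 6.39% and 14.8% of all probe sets. Isg15, a ubiquitin-like protein induced by interferon, rose by 3.62 after Cd (adjusted p = 4.1e-13 in limma) and 1.36 after Cr. Ifit3 rose by 2.58 and 0.55 and Irf7 by 1.76 and 0.66, and Irf1 differed by 0.63 (adjusted p = 0.011 in limma) and 0.36 (adjusted p = 0.075), each after Cd and after Cr. The Irf1 call after Cd was lost without exposed liver 5 (adjusted p = 0.054). Of the MYC factors, Myc read 8.94, 7.77, 8.42, 8.57 and 7.47 in Cr livers and 7.11, 8.38, 6.89, 7.34 and 6.38 in controls, a change of 1.01 (adjusted p = 0.047 in limma) with overlap. The call was lost without variance moderation (adjusted p = 0.074) and in 7 of the 10 fits without a single liver. After Cd Myc read 8.29, 7.41, 7.22 and 6.95, and 6.87, 7.47, 8.16, 7.85 and 7.36 in controls, a difference of -0.08 that turned to 0.32 against pooled controls and 0.52 against the controls of days 3 and 7. Of the 8 MYC factors 2 rose and 1 fell after each metal. The shares of all probe sets were 6.39% higher and 5.27% lower after Cd, and 14.8% and 11.2% after Cr. The MYC factor counts after Cr were near these shares, which include dim probe sets. The MYC antagonist Mxi1 fell after both, by 0.39 after Cd and 0.45 after Cr, while the antagonists Mxd1 (0.39 after Cd) and Mnt (0.46 after Cr) rose. Max, the partner of MYC, rose by 0.31 after Cd, a call lost without exposed liver 1 or 4 or control liver 4.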

How the data were processed

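RNA from whole liver of 59 rats was measured on Affymetrix rat genome expression arrays, 1 per liver. The deposited log2 values are the output of RMA (robust multi-array averaging), which the authors ran in Partek. RMA compresses changes of dim probe sets. The values were used as deposited, without the 57 control probe sets. No 2 arrays held identical values, and array medians were 5.38 to 5.46. Present calls were not used, and the detection filter kept as many probe sets as the methods had, ranked by signal. Gene names came from the array annotation (20826 probe sets with 1 symbol, 436 with several, 9780 with none) and were matched to RefSeq by gene identifier.

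Each metal was fitted separately with limma 3.58.1 in R 4.3.3 (6 groups, exposed minus same-day control), all 59 livers together for differences between metals. Significance was set at 0.05 after Benjamini-Hochberg adjustment over 31042 probe sets. The methods pooled the controls and used ANOVA, and both were alternatives, beside filters, variance trend, array weights, renormalization, the replicate block and leaving out each liver. The controls of days 3 and 7 were an alternative chosen after seeing the data. A gene was read on its brightest probe set. Named genes were the largest called changes (up to 6 rises, 4 falls and 6 differences between metals on day 1, up to 4 per related list) and Atf4, Asns, Trib3, Myc and Irf1. Genes whose pattern was remarked on otherwise (Cars1, Gars1 and Hars2 per liver) were chosen after their values were seen. The spread of the Cr livers in Eprs1, Cars1 and Asns was also remarked on after the values were seen. The members and lists were chosen with earlier results of these data known. The fits were tested on simulated data. Promoter windows came from RefSeq, build GRCr8, and tables were read with Python 3.11.15.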

Additional observations from a re-analysis of the deposited data

Results flagged for a closer look

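Several day 1 effects differed between the metals in a direct test (limma, Cd minus Cr, all 59 livers). The difference was 0.72 for Eprs1 and 0.40 for Wars1, and -0.73 for Yars2, -0.65 for Hars2, -0.60 for Rars1, -0.56 for Nars1 and -0.53 for Gars1. These were flagged because 2 exposures gave different effects on the same gene. The doses of the metals were not matched.

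Effects also differed between days 1 and 3. After Cd the difference (day 1 minus day 3) was 1.04 for Eprs1, 0.87 for Wars1, 0.80 for Yars1 and -0.67 for Cars2. After Cr it was 0.85 for Nars1, 0.69 for Rars1, 0.64 for Yars2, 0.63 for Wars1, 0.52 for Hars1, 0.44 for Gars1, -0.47 for Fars2 and -0.72 for Cars2.

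Single livers stood apart from their group in 3 of the 60 combinations of a named synthetase and a day 1 group, where chance flags about 1 in 20. Yars1 read 8.96 in Cd liver 2 of day 1, below the other Cd livers at 9.37 to 9.42. Fars2 read 7.80 in Cd control 5, below the others at 7.88 to 7.90. Gars1 read 9.97 in Cr control 2, above the others at 9.62 to 9.72.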

How the results depend on the processing

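The day 1 counts of member probe sets, 12 after Cd and 24 after Cr, lay between 8 and 16 and between 20 and 26 under all alternatives. The shares of all probe sets called under the alternatives were not counted. Cytosolic genes higher were 5 to 11 after Cd and 12 to 15 after Cr when single livers were left out. After Cd the 5 came without exposed liver 4 or 5 or control liver 5. Mitochondrial genes higher after Cd became 0 against pooled controls, at a mean signal of 6 or more, with both metals in 1 fit and against the controls of days 3 and 7, and were 0 to 1 without single livers. Mitochondrial genes lower after Cd became 2 at a mean signal of 6 or more, after quantile normalization and against the controls of days 3 and 7, and were 1 to 2 without single livers. Mitochondrial genes higher after Cr became 5 against the controls of days 3 and 7. The difference between metals on day 1 was called for 4 probe sets with only the 4 groups of the day, and for 7 to 13 without single livers. Some differences turned sign, of which the one for Gdf15 had been called. After Cd Myc was 0.32 against pooled controls, 0.52 against the controls of days 3 and 7, 0.078 with the replicate block and -0.35 to 0.10 without single livers. Yars2 after Cd was 0.0080 against pooled controls, 0.034 against the controls of days 3 and 7 and -0.14 to 0.12 without single livers. Gars1 after Cd was 0.013 with the replicate block, 0.11 as the mean of its probe sets and -0.18 to 0.070 without single livers. Lars1 after Cr was -0.026 to 0.13 without single livers. Gdf15 after Cr was 0.031 against the controls of days 3 and 7. The cause of these changes was not tested. Dim probe sets limit what can be read from them.

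The labels do not say what livers of equal number share, and the pairing was not taken as shown because not every pair correlated above 0.1. A pairing was not excluded either, and the main fits leave any variation shared by equal numbers in the spread. Deviations from the group means correlated by 0.127 on average for livers of equal number and by -0.031 for the rest, 18 of 29 pairs were over 0.1 and 16 of 29 exposed livers matched best with their own number. With the number as a block 12 member probe sets were called after Cd, 24 after Cr and 15 for the difference between metals, 8 for day 1 minus day 3 after Cd and 19 after Cr. Shares of all probe sets called with the block were not counted either.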
